A study of Arabidopsis thaliana with 3 samples.

Results

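The expansin genes of Arabidopsis thaliana were examined for DNA bound by SPL10, an SBP-domain transcription factor whose binding sites in leaf material of the ecotype Col-0 were mapped by DAP-seq. Members were the genes of the RefSeq table (assembly TAIR10.1) with EXPA, EXPB, EXLA or EXLB plus a number as symbol or synonym. There were 36 of them among 37899 nuclear genes: 24 EXPA, 6 EXPB, 3 EXLA and 3 EXLB genes. One of them, EXPA19, is annotated as a transcribed pseudogene, and EXLB3 carries PNP-A as its symbol. The genes with the symbols EXP3 and EXP26, whose full names in the table are expansin A3 and expansin A26, did not meet the spelling of the rule and are described apart.

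The series held 2 samples precipitated for SPL10 (IP1 and IP2, here replicate 1 and replicate 2) and 1 input, all labelled as leaf of the ecotype Col-0, with no mutation, transgene or plant treatment named. The labels' protocol describes formaldehyde fixation and sonicated chromatin, and the sources used here do not say how the SPL10 protein was produced. Each replicate had its own peak list, with 21500 and 21363 nuclear peaks and a median of 47 and 44 tags at the summit. Of these, 16697 were shared, which means that the peaks of both lists overlapped by at least 50% of each. They made up 77.7% of the list of replicate 1 and 78.2% of that of replicate 2.

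Expansins are secreted proteins that loosen the plant cell wall without cutting its polymers, and they act best in the acid wall of a growing cell. Alpha-expansins, the EXPA genes, are the main wall-loosening proteins of flowering plants such as Arabidopsis, while the beta-expansins, EXPB, include the grass pollen allergens. Expansin-like proteins, EXLA and EXLB, share the expansin domains, but wall loosening by them is less well established. In leaves, expansins are known for their part in the expansion of cells during blade and petiole growth.

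A gene is called bound here when the summit of a shared peak lay in the gene or within 2000 bp of either end, with the summit taken as the mean of both replicates' summits. The fold enrichment is the authors' own value at each summit, relative to the background of the peak caller. Intervals in parentheses are 95% exact Poisson intervals of the tag number and cover counting error only. As a caution they are left out for summits with over 198 tags, the width of the narrowest peak, since a summit can hold only so many tags. Summits reached 396 tags in replicate 1 and 394 in replicate 2, so 198 is not the limit itself. Whether the highest counts and folds were held down by such a limit was not tested. Members were chosen by name, but the bound ones among them were selected on the peak lists and their fold, so shares and folds are descriptions and were not tested. Whether the replicates came from separate plants is not stated, and no standard deviation is given.

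Of the 36 expansin genes, 26 were bound, or 72.2% (exact binomial interval 54.8% to 85.8%), beside 59.9% of the 27409 other nuclear protein-coding genes. That interval treats the genes as independent draws. The 36 are all the genes that met the rule, and members that share a peak are not independent. It is therefore no test of the share against that of other coding genes. The strongest peak of a bound expansin had a median of 4.75-fold, beside 4.39-fold for the other bound coding genes. A strongest peak of at least 8-fold was found at 4 expansin genes, which is 11.1% of them, beside 12.5% of other coding genes. Among the 5000 shared peaks of highest fold the medians stood the other way round, at 6.94-fold for expansins and 8.42-fold for other coding genes. With a required overlap of 80% they were 6.81-fold and 4.68-fold. At that overlap 19 expansins, or 52.8%, were bound, beside 49.6% of other coding genes. The members differed widely among themselves. Their strongest peaks ran from 1.504-fold to 22.2-fold over both replicates. Of the 26, 17 (65.4%) had a strongest peak with a mean fold above 3.75-fold, the median of all shared peaks, as did 59.2% of the other bound coding genes.

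**Figure D1:**
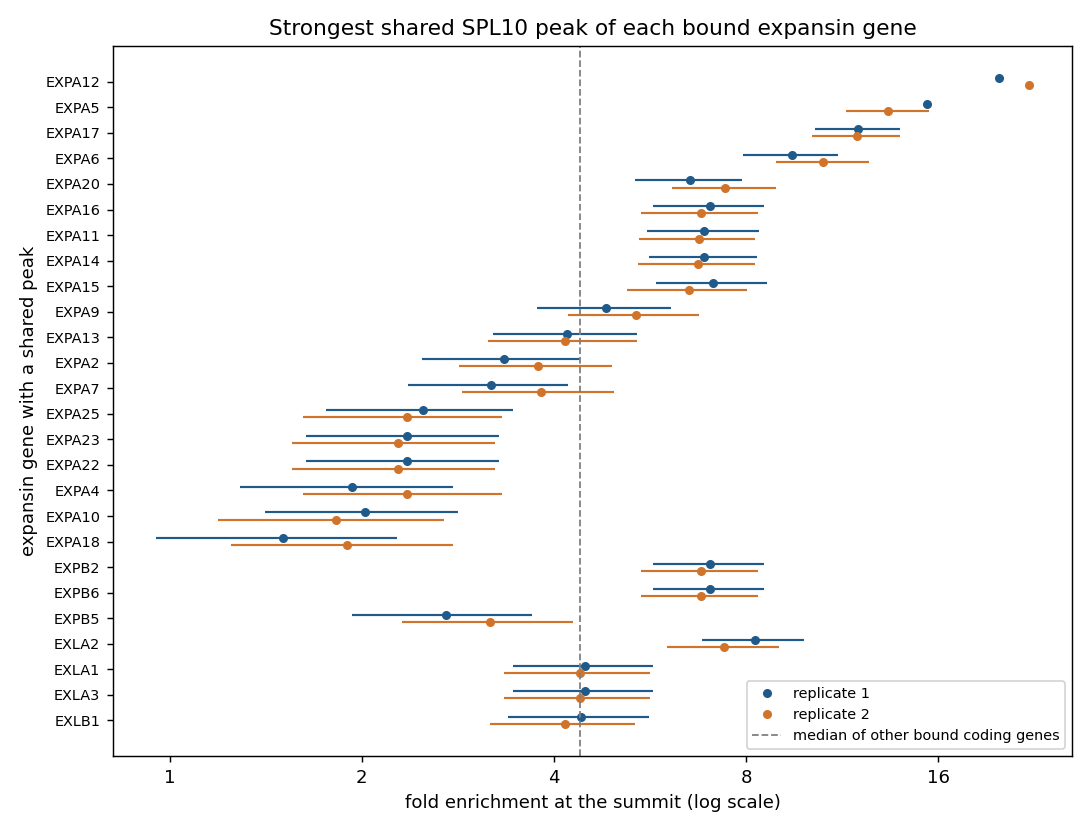
Fold enrichment at the summit (log axis) of the strongest shared peak of each of the 26 bound expansin genes, with replicate 1 and replicate 2 as separate points. Lines are 95% counting intervals, absent for summits with over 198 tags, and the dashed line is the 4.39-fold median of other bound coding genes. EXPA12, EXPA5, EXPA17 and EXPA6 lie highest, and EXPA18 lies lowest.

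The alpha-expansins held the strongest sites. EXPA12 (AT3G15370) had the highest peak of the family, on chromosome 3 from 5189495 to 5189905 (TAIR10, replicate 1 positions as for all peaks here). The fold was 19.9 with 280 tags in replicate 1 and 22.2 with 293 tags in replicate 2. The peak stood at percentile 99.5 of all shared peaks by mean fold. Its summit lay 846 bp beyond the lower-coordinate end of EXPA12 and inside TRX-M4, the gene of a chloroplast thioredoxin, so the peak cannot be given to EXPA12 alone.

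EXPA5 (AT3G29030) had a peak on chromosome 3 at 11015096 to 11015500. The fold was 15.4 with 216 tags in replicate 1 and 13.4 (11.5 to 15.5) with 176 tags in replicate 2. This summit stood 1842 bp beyond the higher-coordinate end of EXPA5, in DNA outside genes, and EXPA5 was the nearest coding gene, with the next one 5837 bp away. It ranked at percentile 96.6 of the shared peaks. Of the strong expansin peaks it was the farthest from its gene, close to the limit of the window.

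EXPA17 (AT4G01630), which is known to act in the emergence of lateral roots, had both of its shared peaks beyond the lower-coordinate end. The stronger, on chromosome 4 at 698672 to 699074, was enriched 11.98-fold (10.25 to 13.9) in replicate 1, and replicate 2 gave 11.9-fold (10.15 to 13.9). That summit lay 1682 bp from EXPA17 and 1678 bp from the coding gene on its other side, so it stood midway between them. The second, 997 bp from EXPA17, had 6.75-fold (5.51 to 8.18) and 6.98-fold (5.68 to 8.49). The replicates overlapped at both sites.

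EXPA6 (AT2G28950) had 3 shared peaks. The strongest, on chromosome 2 at 12434616 to 12435032 and 1043 bp beyond the higher-coordinate end, was enriched 9.43-fold (7.90 to 11.2) in replicate 1, and replicate 2 gave 10.6-fold (8.90 to 12.5). A peak inside the gene had 6.53-fold (5.27 to 7.99) and 6.05-fold (4.81 to 7.52). The weakest, 119 bp beyond the same end as the strongest, had 2.23-fold and 2.16-fold. No other coding gene had any of its bases within 2000 bp of the strongest EXPA6 summit, so among coding genes that site was assigned to EXPA6 alone.

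A further 5 alpha-expansins formed a group of similar height, near percentile 78 to 79 of the shared peaks. EXPA20 (AT4G38210) had 6.53-fold (5.36 to 7.89) and 7.42-fold (6.12 to 8.91) at 231 bp beyond its higher-coordinate end, inside a long noncoding RNA gene. EXPA16 (AT3G55500) had 7.02-fold (5.72 to 8.54) and 6.80-fold (5.48 to 8.35) at 1446 bp beyond the higher-coordinate end, with the gene RBL nearer at 1227 bp. These 2 genes therefore had a neighbour at least as close to the site.

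Both EXPA11 and EXPA14 were bound inside the gene. EXPA11 (AT1G20190) had 6.88-fold (5.59 to 8.38) and 6.74-fold (5.43 to 8.27), 167 bp inside its nearer end. EXPA14 (AT5G56320), which like EXPA17 is linked to lateral root growth, had 6.88-fold (5.63 to 8.33) and 6.73-fold (5.41 to 8.27), 933 bp from its nearer end. EXPA15 (AT2G03090) had 7.09-fold (5.78 to 8.62) and 6.50-fold (5.21 to 8.02) at 1548 bp beyond the lower-coordinate end, and the next coding gene was 5986 bp away. The intervals of the 5 genes overlapped each other in each replicate, so no order among them is given.

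The other 10 bound alpha-expansins had strongest peaks between 1.504-fold and 5.37-fold in either replicate. EXPA9 (AT5G02260) led them and, with 4 shared peaks, had the most sites of any expansin. Its strongest had 4.83-fold (3.76 to 6.11) and 5.37-fold (4.205 to 6.76), 237 bp beyond the higher-coordinate end. The remaining EXPA9 peaks ranged from 2.503-fold to 3.56-fold, 1 of them beyond the lower-coordinate end and 2 inside the gene. EXPA13 had 4.19-fold and 4.16-fold at 1922 bp, with another coding gene 207 bp from the summit.

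Others of these genes had sites of middling or low rank among the shared peaks. EXPA2, which acts in seed germination, had 3.34-fold (2.48 to 4.396) and 3.78-fold (2.84 to 4.93) at 4 bp beyond its higher-coordinate end, and a second peak inside the gene at 3.26-fold and 3.48-fold. EXPA7, a root hair expansin, had 3 shared peaks, of which the strongest lay 1600 bp off, inside another coding gene, and had 3.18-fold (2.36 to 4.21) and 3.81-fold (2.88 to 4.96). The EXPA7 peaks nearer to it, at 124 bp beyond the lower-coordinate end and inside the gene, each had 2.85-fold and 2.80-fold. EXPA18, the other well-known root hair expansin, had 1.504-fold (0.954 to 2.28) and 1.90-fold (1.25 to 2.78). That was the lowest strongest peak of the family, at percentile 0.578 of the shared peaks, and its replicate 1 interval included 1.

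EXPA10 (AT1G26770), known for its part in leaf growth, also had a weak site. Its single shared peak, 1276 bp beyond the higher-coordinate end, had 2.03-fold (1.41 to 2.83) and 1.82-fold (1.19 to 2.69), at percentile 3.10. EXPA4 had 1.93-fold (1.29 to 2.79) and 2.35-fold (1.62 to 3.32). For EXPA4, EXPA10 and EXPA18 the authors' q was above 0.05 in at least 1 replicate, so 23 of the 26 bound members had q under 0.05 in both.

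The remaining weak alpha-expansins belong to a run of 6 neighbouring genes on chromosome 5. EXPA22 had a shared peak inside it, at 15729073 to 15729722, where replicate 1 gave 2.35-fold (1.64 to 3.29) and replicate 2 gave 2.28-fold (1.55 to 3.23). The same peak, 1021 bp off, made EXPA23 a bound gene. EXPA25 was bound through a peak 1044 bp off that lay inside EXP26 (AT5G39290), with 2.49-fold (1.76 to 3.45) and 2.35-fold (1.62 to 3.32). So 2 weak peaks served 4 of the 6 genes, EXP26 included, and no shared peak lay within 2000 bp of EXPA21 or EXPA24 at the ends of the run. These genes are close relatives in a row, and whether reads could be placed uniquely among them was not tested.

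**Figure D2:**
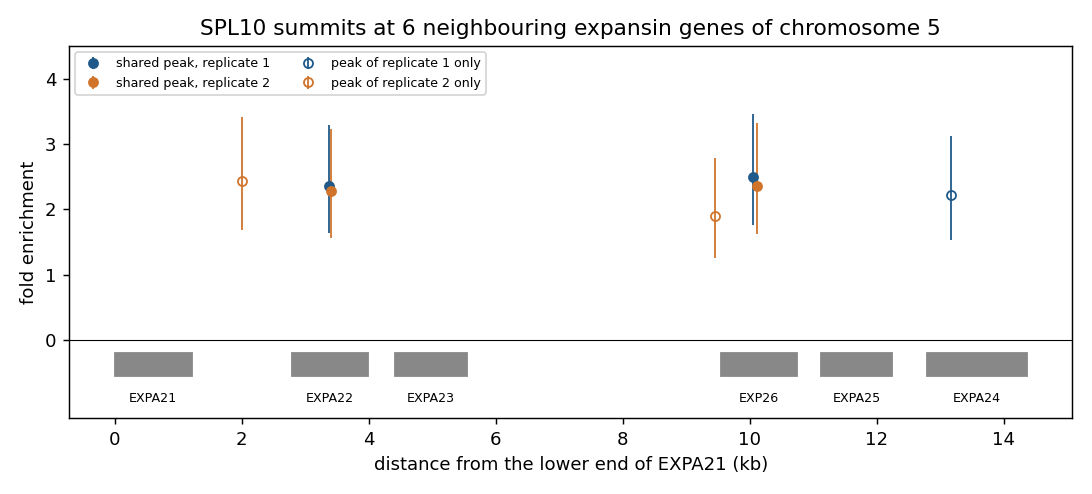
Fold enrichment at SPL10 summits along 6 neighbouring expansin genes of chromosome 5, by distance from the lower-coordinate end of EXPA21 (kb), with genes as grey boxes and lines as 95% counting intervals. Filled points are the 2 shared peaks, at 2.28-fold to 2.49-fold, and open points are peaks called in 1 replicate alone.

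EXP3 (AT2G37640, expansin A3) would also count as bound, with a peak inside the gene at 4.05-fold (3.08 to 5.23) and 5.07-fold (3.94 to 6.42). With EXP3 and EXP26 added, 28 of 38 genes, or 73.7%, were bound.

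Among the beta-expansins, 3 of 6 were bound. EXPB6 (AT1G65681) had 3 shared peaks, the strongest inside the gene on chromosome 1 at 24430249 to 24430577, with 7.02-fold (5.72 to 8.54) and 6.80-fold (5.48 to 8.35). Its other peaks, 341 and 1711 bp beyond the higher-coordinate end, were weaker, the nearer at 2.85-fold and 2.73-fold and the farther at 2.45-fold and 2.18-fold. EXPB2 (AT1G65680), the neighbour of EXPB6, was bound through the strongest of these same peaks, 1724 bp from it, and had no shared peak of its own. EXPB5 (AT3G60570) had 2.71-fold (1.93 to 3.70) and 3.18-fold (2.31 to 4.28) at 675 bp, with another coding gene 440 bp from the summit. The 3 bound beta-expansins thus rested on 2 strongest sites, of which 1 lay inside an EXPB gene.

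All 3 EXLA genes were bound, again through a small number of sites. EXLA2 (AT4G38400), known for its part in the response to a fungal pathogen, had a peak on chromosome 4 from 17980610 to 17980929, of 8.25-fold (6.83 to 9.88) and 7.39-fold (6.01 to 8.996). That summit was 1003 bp beyond the higher-coordinate end and inside AT4G38410, and it lay in or within 2000 bp of 5 coding genes. EXLA3 (AT3G45960) and EXLA1 (AT3G45970) are neighbours and shared 1 peak between them, of 4.48-fold (3.45 to 5.71) and 4.39-fold (3.35 to 5.66). It lay 208 bp from EXLA3 and 1805 bp from EXLA1.

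Of the 3 EXLB genes, EXLB1 (AT4G17030) was bound, by a peak 781 bp inside its nearer end with 4.41-fold (3.39 to 5.63) and 4.16-fold (3.18 to 5.36). EXLB3, which encodes the plant natriuretic peptide PNP-A, a secreted regulator of water and ion balance, had no shared peak closer than 9897 bp, the longest such distance of the family. EXLB2 (AT4G30380) had its nearest shared peak at 3244 bp, inside another coding gene.

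The 10 members without a shared peak in the window were EXPA1, EXPA8, EXPA19, EXPA21, EXPA24, EXPB1, EXPB3, EXPB4, EXLB2 and EXLB3. Their nearest shared summits were between 2174 and 9897 bp away. For EXPA1, an expansin of guard cells, the nearest was 2872 bp off, inside the gene AGL94, at 2.39-fold (1.72 to 3.25) and 2.24-fold (1.59 to 3.08). A peak called in replicate 1 alone stood 643 bp beyond the lower-coordinate end of EXPA1, at 2.49-fold (1.76 to 3.45). Such peaks of replicate 1 alone were also found at EXLB2, at 1.97-fold (1.36 to 2.76), and inside EXPA24, at 2.21-fold (1.52 to 3.12). EXPA21 had a peak of replicate 2 alone, at 2.43-fold (1.68 to 3.41). The other 6 had no peak of either replicate in the window.

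The limit of 2000 bp decided several members. Just inside it were EXPA13 at 1922 bp, EXPA5 at 1842 bp and EXLA1 at 1805 bp. Just outside was EXPA21 at 2174 bp, with 2.35-fold and 2.28-fold, followed among the members not bound by EXPA19 at 2572 bp, with 4.48-fold and 5.22-fold. Counting each gene and peak together, there were 37 such pairs over 34 distinct peaks, since 3 peaks lay in the windows of 2 members each. Of these pairs, 10 had the summit in the gene, or 27.0%, beside 35.3% for other coding genes. A further 11 (29.7%) lay within 1000 bp outside the gene, beside 32.4%, and 16 (43.2%) lay 1000 to 2000 bp off, beside 32.3%. Strand was not part of the gene table, so which of the ends is the promoter was not used. Beyond the higher-coordinate end there were 18 summits and beyond the lower 9, while for other coding genes there were 7845 and 7960.

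**Figure D3:**
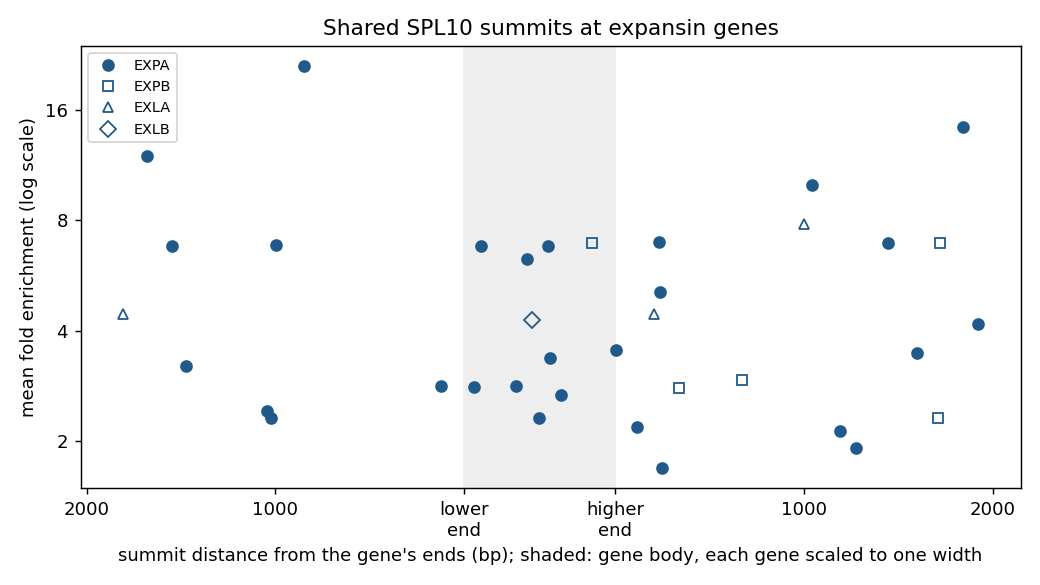
Mean fold enrichment (log axis) of the 37 pairs of an expansin gene and a shared summit, by distance from the lower-coordinate and higher-coordinate ends of the gene (bp). Gene bodies, shaded, are scaled to one width. The 10 summits inside genes all lie below 8-fold, and the 4 sites above it lie outside, 846 to 1842 bp from the gene.

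The share of bound expansins stood above that of other coding genes with 2000 bp and below it with smaller windows, a difference that was not tested. With 1000 bp, 15 members were bound, or 41.7%, beside 45.9% of other coding genes. With 500 bp, 12 were bound, or 33.3%, beside 37.2%. When each peak was given to the nearest coding gene alone, 15 members, or 41.7%, were bound beside 39.4%. The 11 members that lost their site to a neighbour were EXPA12, EXPA13, EXPA16, EXPA18, EXPA20, EXPA23, EXPA25, EXPB2, EXPB5, EXLA1 and EXLA2. For EXPA23, EXPA25, EXPB2 and EXLA1 that neighbour was itself an expansin gene. When the peaks were limited by strength, the order of expansins and background was as with all peaks. With −log10 q of at least 10 in both lists, 18 members, or 50%, were bound beside 36%. Among the 5000 shared peaks of highest fold, 12 members, or 33.3%, had one beside 22.6%.

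**Figure D4:**
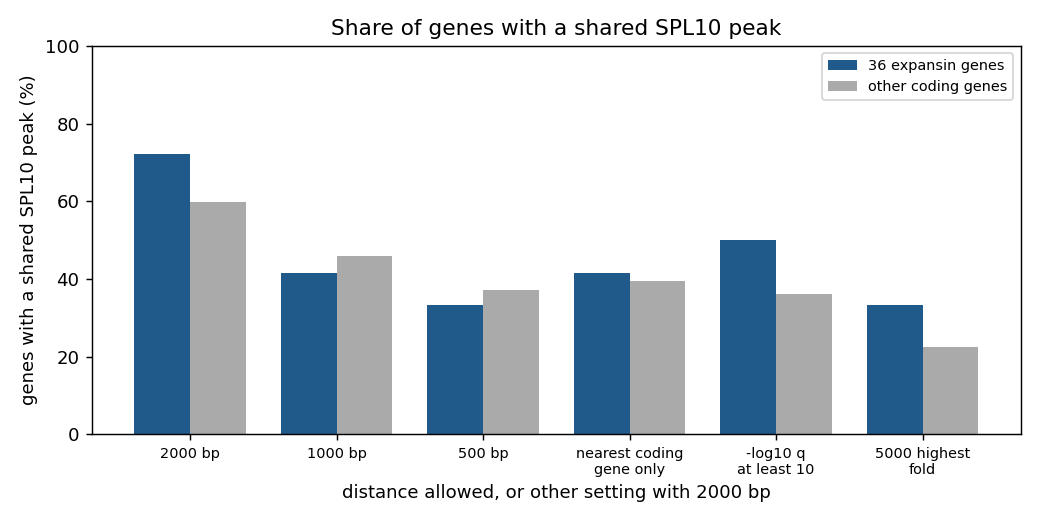
Percentage of genes with a shared SPL10 peak for the 36 expansin genes and the 27409 other nuclear protein-coding genes, under windows of 2000, 1000 and 500 bp and under 3 other settings with 2000 bp. Expansins stand at 72.2% against 59.9% with 2000 bp and at 41.7% against 45.9% with 1000 bp.

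The surroundings of the genes differed too. The windows of expansin genes held a median of 2487 bases outside all annotated genes, beside 1770 for other coding genes, and expansin genes themselves were shorter, with a median of 1609 bp beside 2079 bp. Of the 6859 other coding genes with the fewest gene-free bases 56.5% were bound, and of the 6848 with the most (at least 2550) 62.7%. Of the expansins, 17 fell in the range of the latter, and 11 of these were bound (64.7%). All 4 in the range with the fewest gene-free bases were bound, as were all 5 in the next and 6 of 10 in the third. These groups of expansins are small. The shares, and the part of gene-free bases in them, were not tested.

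The replicates were compared with each other at every shared peak by an exact binomial test of the tag numbers, two-sided. The test covers peaks called in both lists, so a site that differed enough to be called in 1 list alone was left out of it. None of the 34 expansin peaks differed with an adjusted p under 0.05 (Benjamini-Hochberg over 16676 shared peaks), and none had an unadjusted p under 0.05. Over all shared peaks 1 differed after adjustment, or 0.006%, and 216 (1.30%) had an unadjusted p under 0.05, a lower share than that threshold would give. The lowest unadjusted p of an expansin peak was 0.157 in this exact binomial test, at EXPA5, where replicate 1 was higher. Of the strongest peaks of the 26 bound members, 17 were higher in replicate 1 and 9 in replicate 2, and the largest ratio between replicates was 1.26. These are counts of genes: 3 peaks, each the strongest of 2 members, were counted for both, and all 3 were higher in replicate 1. The same count over all shared peaks is not given here. The summits of both replicates lay a median of 13.5 bp apart.

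Other genes of cell wall extension gave a scale for these values. Xyloglucan endotransglucosylase/hydrolases (XTH), which cut and rejoin the xyloglucan between cellulose fibres, were bound in 23 of 33 cases, or 69.7%, with a median strongest peak of 4.84-fold. Other coding genes stood at 59.9% and 4.39-fold. At least 8-fold was reached by 9 XTH genes, or 27.3%, beside 11.1% of expansins and 12.5% of other coding genes. The strongest XTH site, at 20.5-fold and 20.6-fold, lay inside XTH25 and also in the windows of its neighbours XTH13 and XTH22, the touch-induced gene TCH4, and XTH14 and XTH23 shared another. The 9 genes thus rested on 6 distinct peaks, and the 4 expansin genes of at least 8-fold on 4.

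Plasma membrane proton ATPases (AHA), which acidify the wall and so create the conditions in which expansins act, were bound in 10 of 11 cases, or 90.9%. Their median was 4.24-fold, below the 4.39-fold of other bound coding genes. AHA4 had 24.0-fold and 24.5-fold at 1837 bp, AHA11 had 20.3-fold and 22.2-fold at 637 bp, and AHA1, a major pump of the plant, had 7.23-fold (5.91 to 8.77) and 6.65-fold (5.35 to 8.18) inside the gene. AHA genes were much longer than expansins, with a median of 5334 bp, and the part of gene length in their share was not tested. Cellulose synthase genes (CESA) were bound in 6 of 10 cases, or 60%, with a median of 4.35-fold, close to the 59.9% and 4.39-fold of other coding genes. They were led by CESA5 at 9.48-fold (8.08 to 11.0) and 9.85-fold (8.38 to 11.5), then CESA9 at 4.76-fold and 5.37-fold and CESA6 at 4.80-fold and 4.13-fold. Differences between these lists and the expansins were not tested.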

How the data were processed

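SPL10 DAP-seq was measured in 2 precipitated samples and 1 input of Col-0 leaf. The submitters' processing notes name cutadapt and the genome build TAIR10, and peak names in the files name MACS; the sources used here do not give its version, threshold or control. Peaks were called per replicate. Deposited per peak were the fold enrichment (a ratio), −log10 p and −log10 q, a caller's score (not used further here) and positions. The input's alignment log was not used.

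Peaks were paired one-to-one at a reciprocal overlap of at least 50%, best overlap first. The whole number of tags at each summit was solved from the deposited −log10 p and fold for 99.9% of nuclear peaks in each list; recovery and the binomial test were tested on simulated data. Values per gene are means of both log2 folds unless both replicates are given. Gene names and distances came from the RefSeq table of TAIR10.1 (no strand), with all 36 members found by symbol or synonym; its coordinates are not printed. No genome sequence was used here, so the planned search for the GTAC core and the printing of sites were not run.

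The members and lists were chosen with earlier results of these data known. By the naming rule, values of both replicates are given for the 12 bound members of highest mean fold and every bound EXPB, EXLA and EXLB gene, and at most 3 genes of each other list; values of the other members, EXP3 and EXP26 were added after they were seen. Analyses used Python 3.11.15 with scipy 1.17.1 and pandas 2.3.3. Alternatives were other windows, overlaps, peak thresholds, assignment to the nearest gene and single replicates.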

Additional observations from a re-analysis of the deposited data

How the results depend on the processing

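The 26 bound expansins and the 19 bound EXPA genes became 15 and 11 with windows of 1000 bp, 12 and 9 with 500 bp, 15 and 12 with the nearest coding gene alone and 12 and 9 with the 5000 peaks of highest fold. With −log10 q of at least 10, 12 EXPA genes (50%) were bound, beside 36% of other coding genes. The 19 EXPA genes with all peaks were 79.2% of 24, beside 59.9%. Their share was 45.8% with 1000 bp, 37.5% with 500 bp, 50% with the nearest gene alone and 37.5% with the 5000 highest peaks. Other coding genes stood at 45.9%, 37.2%, 39.4% and 22.6%. Bound expansins were 27 (75%) without replicate 1, beside 69.4%, and 29 (80.6%) without replicate 2, beside 69.8%. Bound EXPA genes were 20 (83.3%) and 21 (87.5%). The 5000 highest peaks left 11 XTH (33.3%), 4 AHA (36.4%) and 1 CESA gene (10%), beside 22.6% of other coding genes. Windows of 500 bp left 6 AHA genes (54.5%), beside 37.2%. Without replicate 1, 23 XTH (69.7%), 10 AHA (90.9%) and 7 CESA genes (70%) were bound, beside 69.4% of other coding genes. Without replicate 2, 27 XTH (81.8%), 11 AHA (100%) and 7 CESA genes (70%) were bound, beside 69.8%. The median fold of bound expansins, 4.75, was 5.09 with 1000 bp or the nearest gene alone, 6.81 with 80% overlap, 6.94 with the 5000 highest peaks, 6.86 with −log10 q of at least 10 and 4.39 to 4.48 with single replicates. The medians of other bound coding genes, 4.39 with all shared peaks, were 4.14 with 1000 bp or the nearest gene alone, 4.68 with 80% overlap, 6.51 with −log10 q of at least 10, 3.91 to 3.94 with single replicates and 8.42 with the 5000 highest peaks, where they lay above the expansins. The cause of these shifts was not tested. The remaining counts stayed within 1.5 times the main count. Of 132 alternative folds of the 16 genes given in full, 4 moved by more than the spread between replicates: EXPA6 was 6.28-fold with 1000 or 500 bp, and EXPA17 was 6.86-fold with 1000 bp or the nearest gene alone. The alternatives reuse the same deposited folds. A gene's value can change only where another peak becomes its strongest or 1 replicate is taken alone. The other 128 values therefore say little about robustness. A further 28 alternatives had no value because no peak was left. With Fisher's exact test in place of the exact binomial test, again 0 expansin peaks differed between replicates (adjusted p under 0.05), and 1 of all shared peaks. The search for the GTAC core was not run. No paired analysis was possible because the input has no peak list and a single group has replicates. The 7 distinct expansin peaks with a mean under 2.5-fold had 20 to 42 tags. The fold is itself computed from the tags, and whether depth limits these weak sites was not tested.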

Other observations

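Several expansin genes had a shared peak beyond the 2000 bp window that was about as strong as, or stronger than, the one inside it. At EXPA20 a peak 3177 bp off had 8.35-fold (7.06 to 9.81) in replicate 1, with 10.24-fold (8.75 to 11.9) in replicate 2, beside 6.53-fold and 7.42-fold for its strongest peak in the window. EXLA3 had 8.22-fold (6.97 to 9.63) and 8.42-fold (7.11 to 9.89) at 3869 bp, beside 4.48-fold and 4.39-fold. EXPA15 had 8.15-fold (6.74 to 9.78) and 7.56-fold (6.16 to 9.18) at 3299 bp, and EXPA11 had 7.09-fold (5.78 to 8.62) and 6.80-fold (5.48 to 8.35) at 2638 bp. EXPA10, whose peak in the window was weak, had 4.26-fold (3.27 to 5.47) and 4.54-fold (3.48 to 5.83) at 3585 bp. In all, 20 pairs of a member and a shared summit lay 2000 to 4000 bp from the gene, and these peaks were looked at after the values in the window were seen. The same count for other coding genes is not given here, so the 20 pairs cannot be called many or few for expansins. They may belong to other genes.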
